A study of Mus musculus with 7 samples.

Results

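Chromatin accessibility was examined around 8 genes whose surface proteins, or the surface epitope their enzyme makes, are used to follow fibroblasts on their way to pluripotency: Thy1, Cd44, Icam1, Fut4, Pdgfra, Pdgfrb, Pecam1 and Ly6a. A peak was assigned to a gene when it overlapped the gene body or the 20 kb on either side, in the mm10 genome with GENCODE M21 genes. All 8 genes were found, out of 21951 protein-coding genes. When touching or overlapping peaks of all libraries were merged, 44 of 104346 regions lay in these windows. The genes were chosen by name and not by a filter on their accessibility, but earlier results of these data were known at the time.

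The study followed MEFs (mouse embryonic fibroblasts) by ATAC-seq, which cuts accessible DNA in nuclei with the Tn5 transposase and sequences the fragments. There were 7 libraries, 1 per time-point, without replicates. The MEFs came from a cross of B6;129S4 mice with the allele Col1a1tm1(tetO-Pou5f1,-Klf4,-Sox2,-Myc)Hoch to B6.Cg mice with the allele Gt(ROSA)26Sortm1(rtTA*M2)Jae. The Col1a1 allele holds the 4 reprogramming factors (OKSM) under a tetracycline operator, and rtTA, the transactivator that doxycycline switches on, is made from the other. The day 0 library came from untreated MEFs. The libraries of days 1, 2, 3, 6 and 9 came from MEFs kept in doxycycline at 2 µg/mL for that number of days. The ESC (embryonic stem cell) library came from untreated cells of the line Bruce-4, for which the label repeats the MEF genotype. No doxycycline-treated MEFs without the cassette were among the libraries, so the agent and the factors cannot be told apart, nor can time in culture. The paper's general protocol also raises the serum content of the medium when doxycycline is added. It changes to ESC medium with the factor LIF when the first colonies appear, between days 6 and 9. Neither change can be told apart from the time-points, and the second bears on day 9. Every library was made from a whole cell population. In such a mixture, fewer cells with open chromatin at a site and less open chromatin per cell cannot be told apart.

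Thy1 is a glycoprotein anchored in the membrane of fibroblasts, and its disappearance is an early step on the way to pluripotency. Cd44, the receptor for hyaluronan, and Icam1, an adhesion ligand for leukocyte integrins, are used together to divide the later stages, because cells lower Cd44 and regain Icam1 as they approach the pluripotent state. Fut4 is a fucosyltransferase that can build the Lewis X epitope, known as SSEA-1 on mouse ESCs. Pdgfra and Pdgfrb are the receptor tyrosine kinases for platelet-derived growth factors and mark mesenchyme. Ly6a encodes Sca-1, found on many MEFs and on blood progenitors, and Pecam1 encodes CD31, an adhesion molecule of endothelium that ESCs also carry.

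The stretches below lie at the promoters and regions described in the following paragraphs. Each has 200 bases, read 5′ to 3′ on the strand of the gene from GRCm38, the assembly that mm10 names. For Thy1, Cd44, Icam1 and Fut4, whose promoter peak was present on day 0 and absent in ESCs, the bases directly before the annotated 5′ end are given. The promoter peaks did not always reach these bases. Peaks of days 0 and 9 alone overlapped those of Fut4, its other promoter peaks lying within the gene. No peak covered those of Icam1 whole. For 5 regions away from the 5′ ends, the bases are centred on the stretch covered by peaks of the most libraries. None of them overlaps an annotated exon. Capitals mark matches, on either strand, to the letters searched for 7 families of factors: TGANTCA for AP-1, GGAATG for TEAD, TGTGGT for RUNX, ATGCAAAT for the octamer, GGGNGTGG for KLF, ACAANG for SOX and CACGTG for the E-box.
Thy1 promoter, chr9:44043184-44043383, plus strand: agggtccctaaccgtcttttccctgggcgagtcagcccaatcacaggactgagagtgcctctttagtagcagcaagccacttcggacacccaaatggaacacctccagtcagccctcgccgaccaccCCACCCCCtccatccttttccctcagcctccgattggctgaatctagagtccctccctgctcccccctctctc
Cd44 promoter, chr2:102901666-102901865, minus strand: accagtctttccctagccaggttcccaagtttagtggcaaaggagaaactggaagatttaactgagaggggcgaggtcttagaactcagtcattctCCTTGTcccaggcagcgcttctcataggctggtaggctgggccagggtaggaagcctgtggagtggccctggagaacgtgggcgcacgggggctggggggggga
Icam1 promoter, chr9:21015785-21015984, plus strand: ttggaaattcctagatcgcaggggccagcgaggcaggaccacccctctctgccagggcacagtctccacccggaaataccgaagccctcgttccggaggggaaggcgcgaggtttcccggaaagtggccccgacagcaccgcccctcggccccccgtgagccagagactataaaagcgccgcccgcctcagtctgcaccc
Fut4 promoter, chr9:14752394-14752593, minus strand: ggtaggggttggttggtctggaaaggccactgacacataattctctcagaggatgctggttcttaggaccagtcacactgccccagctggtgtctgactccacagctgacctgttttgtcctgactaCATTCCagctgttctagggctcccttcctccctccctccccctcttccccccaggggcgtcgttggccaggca
Thy1 upstream region, chr9:44039899-44040098, plus strand: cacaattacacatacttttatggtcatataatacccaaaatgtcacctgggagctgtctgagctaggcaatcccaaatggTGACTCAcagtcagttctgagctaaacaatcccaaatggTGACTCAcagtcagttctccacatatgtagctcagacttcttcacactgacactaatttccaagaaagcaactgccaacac
Thy1 3′ region, chr9:44048949-44049148, plus strand: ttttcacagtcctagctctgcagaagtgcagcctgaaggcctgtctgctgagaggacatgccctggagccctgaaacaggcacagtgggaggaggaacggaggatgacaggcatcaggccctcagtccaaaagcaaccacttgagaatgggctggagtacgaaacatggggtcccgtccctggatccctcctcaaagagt
Cd44 intron region, chr2:102838330-102838529, minus strand: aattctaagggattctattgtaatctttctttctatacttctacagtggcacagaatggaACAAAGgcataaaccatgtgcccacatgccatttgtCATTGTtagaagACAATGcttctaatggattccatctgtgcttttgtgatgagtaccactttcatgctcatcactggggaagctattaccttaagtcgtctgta
Pecam1 shared intron region, chr11:106723055-106723254, minus strand: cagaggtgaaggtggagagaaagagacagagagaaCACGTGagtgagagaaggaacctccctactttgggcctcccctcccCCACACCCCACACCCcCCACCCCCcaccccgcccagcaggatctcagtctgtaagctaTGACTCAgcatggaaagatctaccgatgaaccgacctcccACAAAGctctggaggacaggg
Pecam1 ESC intron region, chr11:106706352-106706551, minus strand: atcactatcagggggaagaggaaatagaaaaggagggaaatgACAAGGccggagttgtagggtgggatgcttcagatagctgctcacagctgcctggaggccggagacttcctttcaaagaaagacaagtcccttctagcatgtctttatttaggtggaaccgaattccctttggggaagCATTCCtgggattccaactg

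The Thy1 upstream region held 2 AP-1 matches, at bases 81 to 87 and 120 to 126. Both lay in a stretch of 31 bases that occurred in full at base 68 and again at base 107. The Pecam1 shared intron region held 1 AP-1 match, 3 KLF matches, 1 E-box match and 1 SOX match. Of its KLF matches, the one ending at base 89 and the one starting there share that base, and no other matches share bases. The Cd44 intron region held 3 SOX matches and none to the other letters. The Pecam1 ESC intron region held 1 TEAD and 1 SOX match, and the Thy1 3′ region held none of the 7. In the promoters there was 1 KLF match for Thy1, 1 SOX match for Cd44, 1 TEAD match for Fut4 and none of the 7 for Icam1.

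Matches of this kind are common. In the central 200 bases of all 104248 regions on chromosomes 1 to 19, X and Y, AP-1 letters were present in 16%, TEAD in 15%, RUNX in 15.7%, the octamer in 2.28%, KLF in 10.2%, SOX in 36.5% and the E-box in 3.3%. In the 200 bases before the 5′ end of 21938 protein-coding genes, the shares were 4.81% for AP-1, 9.07% for TEAD, 10.5% for RUNX, 1.22% for the octamer, 15.2% for KLF, 27.6% for SOX and 5.65% for the E-box. A match describes letters and not a bound site.

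The peak lists held 61241 peaks on day 0, between 33007 and 48087 on days 1 to 9, and 27074 in ESCs. The authors brought all libraries to one read depth, whose value is not stated, and the lists carry no reads per peak. A gene without a peak is therefore one where none was detected at an unknown depth. As a check of the labels, 6 of 8 fibroblast genes had a promoter peak on day 0, 5 or 6 on days 1 to 9 and 3 in ESCs. Of all protein-coding genes, 59.6% had one on day 0, 51.6 to 57.3% on days 1 to 9 and 50.3% in ESCs. Of 7 ESC genes, 3 had one in the ESC library (Pou5f1, Esrrb and Zfp42), but 3 also had one on day 0, and Nanog and Sall4 had none in any library. The keratinocyte genes Krt5, Krt14 and Trp63 had none in any library. The lists are small, and their distance from the shares of all genes was not tested. The ESC genes did not separate the ESC library from day 0, so this check is weak.

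In the full peak lists, the surface markers had most of their accessible sites in untreated MEFs and fewest in ESCs. Near the 8 genes there were 35 peaks on day 0. On days 1, 2, 3, 6 and 9 there were 20, 14, 23, 23 and 16, and in ESCs there were 8. The length under these peaks was 14624 bp in untreated MEFs, 7937, 5403, 8359, 8912 and 5906 bp on the 5 doxycycline days in order, and 3444 bp in ESCs. The peak lists as a whole were also longest on day 0 and shortest in ESCs. Per 10000 peaks of the library, peaks near the markers numbered 5.72 on day 0, 4.38, 4.22, 4.78, 5.13 and 4.85 on days 1, 2, 3, 6 and 9, and 2.95 in ESCs. The ESC library thus held 22.9% as many peaks near the markers as the day 0 library. When each list was limited to its 27074 widest peaks, there were 8 in ESCs and 12 on day 0, or 66.7%. Days 1, 2, 3, 6 and 9 then had 12, 13, 10, 11 and 12. With lists of equal length, day 0 thus no longer had the most, while ESCs still had the fewest. Without replicates, none of these differences could be tested.

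**Figure D1:**
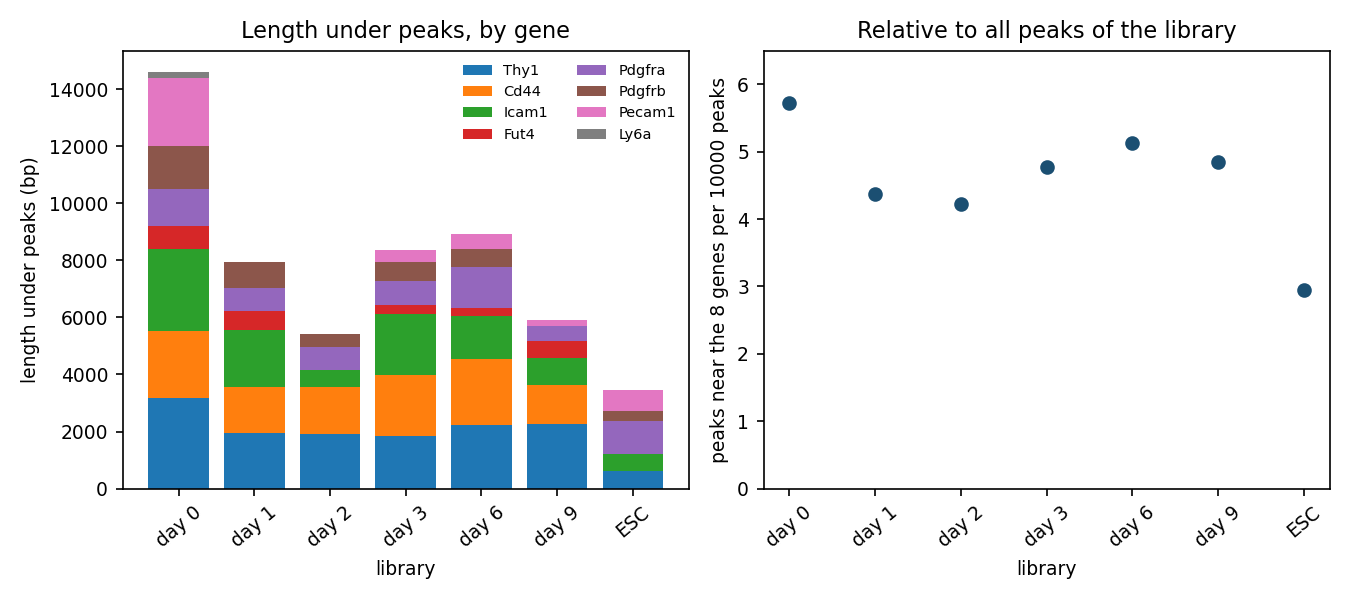
Left, length in bp under the peaks within 20 kb of the 8 genes in each library, stacked by gene. Right, peaks near the 8 genes per 10000 peaks of the same library. Both are highest on day 0 (14624 bp and 5.72) and lowest in ESCs (3444 bp and 2.95), each point or bar being 1 library.

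At the promoters, most markers had a peak in MEFs and 1 had a peak in ESCs. A promoter peak here is a peak within 1000 bp of any annotated transcription start site (TSS) of the gene. On day 0 it was present for 7 of the 8 genes, all but Ly6a, against 59.6% of all protein-coding genes. On day 1 it was present for 6 (background 55.7%), on day 2 for 5 (51.6%), on day 3 for 6 (56.4%), on day 6 for 6 (57.3%) and on day 9 for 4 (53.4%). In ESCs Pdgfra alone had one, against 50.3% of all genes. For the 5′ end of the gene record alone, the day 0 count was 6 of 8 (54.5% of all genes). Day 1 had 5 (50.7%), day 2 had 3 (46.9%), day 3 had 4 (51.4%), day 6 had 4 (52.6%), day 9 had 3 (48.8%) and ESCs had 0 (46%). From day 1 to day 9 these counts are near the background and say nothing particular about the markers. The counts of day 0 and of ESCs rest on the same 8 genes, and their distance from the background was not tested.

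Between the ends of the time-course, 6 of the 8 genes had a promoter peak on day 0 and none in ESCs: Thy1, Cd44, Icam1, Fut4, Pdgfrb and Pecam1. That pattern was found in 12.1% of all protein-coding genes, or in 11.3% by the 5′ end alone, where the same 6 markers had it. With the full lists, none of the 8 had a promoter peak in ESCs without one on day 0. Of all genes, 2.72% had that pattern, or 2.75% by the 5′ end. The genes that lack a day 0 peak by the 5′ end are Pdgfra and Ly6a. With the 27074 widest peaks of each library, Pdgfra had a promoter peak in ESCs without one on day 0. Thy1, Cd44, Icam1, Fut4 and Pdgfrb then had one on day 0 and none in ESCs, and Pecam1 had neither. The shares of all genes in that setting are not given here.

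**Figure D2:**
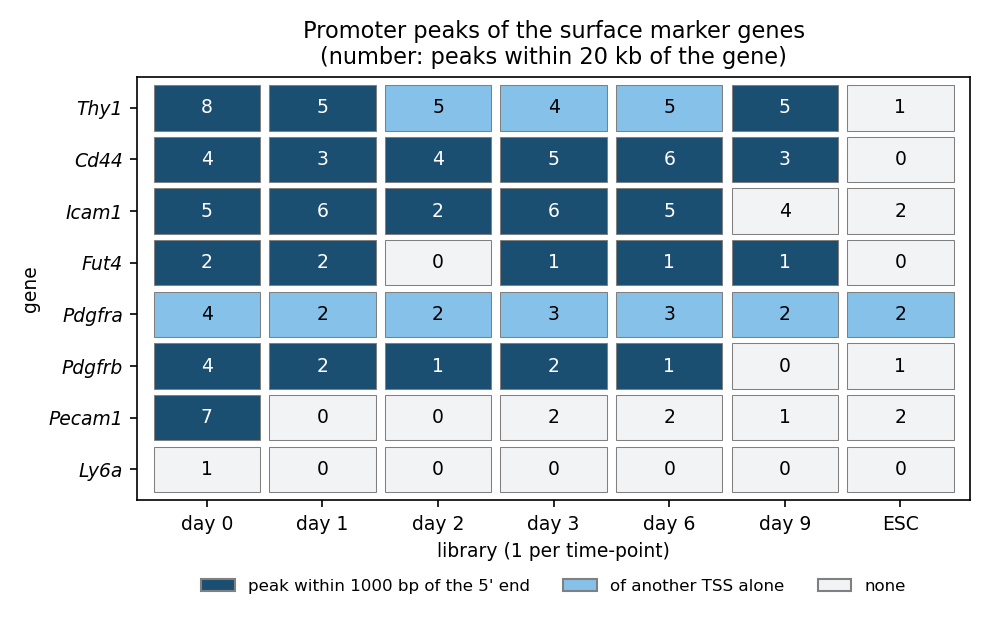
Each row is a gene and each column a library. Dark cells mark a peak within 1000 bp of the 5′ end of the gene, light blue cells a peak within 1000 bp of another TSS alone, and pale grey cells neither. The number is the count of peaks within 20 kb of the gene. Dark cells number 6 on day 0 and 0 in ESCs, where Pdgfra is the light blue cell.

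Thy1 (ENSMUSG00000032011.5, chromosome 9, 44043384 to 44048579, plus strand) had 9 regions in its window. It had 8 peaks on day 0, 4 on day 3, 5 on each other doxycycline day and 1 in ESCs. The promoter region, 44043015 to 44043546, overlapped the first exon. Its peak measured 532, 360 and 201 bp on days 0, 1 and 9, and no peak was found there on days 2, 3 and 6 or in ESCs. So no peak was called at the Thy1 5′ end in 3 libraries in the middle of the time-course, and one was called again on day 9. The day 9 peak was close to the minimum width in the lists, 200 bp, in 1 library of unknown depth. The pattern over the 7 libraries depends on that call. It was shared by 12 of the 21950 other protein-coding genes (0.0547%).

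Regions before the Thy1 promoter behaved differently from it. The upstream region at 44039667 to 44040252, its middle 3424 bp before the 5′ end, had peaks of 537, 429, 242, 543, 539 and 428 bp on days 0, 1, 2, 3, 6 and 9. It had none in ESCs. This is the region with the repeated AP-1 letters above. Another, 13275 bp upstream at 44029785 to 44030433, had widest peaks of 377, 231, 200, 200, 296 and 513 bp on the same days and none in ESCs. Both were thus present in all 6 MEF-derived libraries, including those in which the promoter peak was missing.

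The Thy1 3′ region, 44048594 to 44049179, lies just beyond the end of the gene. No peak was found there on day 0. On days 1, 2, 3, 6 and 9 its peak was 200, 555, 482, 454 and 497 bp wide, and in ESCs there was none. Its near edge lies 672 bp and its middle 965 bp from an annotated internal Thy1 TSS, which is why Thy1 counts as having a promoter peak on days 2, 3 and 6 by any TSS and not by the 5′ end. A smaller region 1842 bp upstream had peaks on day 2 (265 bp) and day 6 (318 bp) alone. The single ESC peak in the window, 615 bp wide, lay at 44066585 to 44067353, 52 bp from the start of the neighbouring gene Usp2, and was present in all 7 libraries. The other 3 regions, with peaks of 200, 200 and 342 bp, were found on day 0 alone.

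Of the PDGF receptors, Pdgfra (ENSMUSG00000029231.15, chromosome 5, 75152292 to 75198215, plus strand) had no peak within 1000 bp of its 5′ end in any library, which it shares with 8745 other genes (39.8%). Its promoter peak belongs to a further annotated TSS. The region at 75155637 to 75156623 overlaps an exon with its middle 3838 bp into the gene. It had peaks in all 7 libraries, the widest measuring 404 bp on day 0, 616, 561, 361, 955 and 301 bp on days 1, 2, 3, 6 and 9, and 682 bp in ESCs. The widest value was on day 6 and the ESC value was above that of day 0. It was the only region of the 8 genes that was both nearest to a member's own TSS and present in every library.

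The other Pdgfra regions were found in 1 to 3 libraries. A region 8947 bp upstream had peaks of 413, 200 and 273 bp on days 0, 1 and 6. Regions of 283 bp in an exon and of 200 bp beyond the gene were found on day 0 alone. A region beyond the 3′ end, at 75209994 to 75210472, was absent on day 0 and had a peak of 200 bp on day 6 and of 479 bp in ESCs.

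Pdgfrb (ENSMUSG00000024620.11, chromosome 18, 61045150 to 61085061, plus strand) had a promoter peak of 843 bp on day 0, the widest peak at the 5′ end of any member. It measured 486, 456, 409 and 630 bp on days 1, 2, 3 and 6 and was not found on day 9 or in ESCs. Its window held no peak of any kind on day 9. An exonic region 23437 bp into the gene had peaks of 207, 409 and 260 bp on days 0, 1 and 3. Introns held peaks of 216 and 232 bp on day 0 alone, and 1 of 353 bp in ESCs alone, 32175 bp from the 5′ end and closer to the start of Csf1r, the receptor of a macrophage growth factor. By any TSS, both receptors had a promoter peak up to day 6, and on day 9 and in ESCs Pdgfra alone had one. By the 5′ end, Pdgfrb had a peak up to day 6 and Pdgfra had none in any library.

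Ly6a (ENSMUSG00000075602.10, chromosome 15, 74994877 to 74998031, minus strand) had no promoter peak in any library. The single peak in its window, 237 bp wide and found on day 0, lay 9140 bp downstream of the 5′ end and nearer to the start of Ly6i. Genes of the Ly6 family are close copies of each other, and how reads that map to several copies were treated is not given in the sources used here. The absence of peaks at Ly6a is therefore uncertain.

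Cd44 (ENSMUSG00000005087.17, chromosome 2, 102811141 to 102901665, minus strand) had 8 regions and no other protein-coding gene in its window. There were 4 peaks on day 0, 3, 4, 5, 6 and 3 on days 1, 2, 3, 6 and 9, and 0 in ESCs. Its promoter region, 102901152 to 102902000, had peaks of 721, 701, 641, 694, 636 and 538 bp on days 0, 1, 2, 3, 6 and 9. Cd44 was the only member with a peak at the 5′ end in all 6 MEF-derived libraries and none in ESCs, which 864 other genes also had (3.94%).

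The Cd44 intron region at 102838046 to 102838841, 63221 bp from the 5′ end, had no peak on day 0. It had peaks of 568, 573, 674, 655 and 621 bp on days 1, 2, 3, 6 and 9 and none in ESCs, so it appeared on the first day of doxycycline and stayed through day 9. Like the Thy1 3′ region, it belongs to the 2 regions found on each doxycycline day and on neither end. An intronic region 51499 bp from the 5′ end had widest peaks of 401, 357, 263 and 255 bp on days 0, 1, 3 and 6. A region 15135 bp upstream measured 609 bp on day 0 and 269 bp on day 6. A 630 bp peak 28146 bp into the gene was found on day 0 alone, the widest of all such peaks near the markers. Of the remaining intronic regions, 1 was found on day 2 alone, 1 on days 2 and 3 (233 and 271 bp) and 1 on days 6 and 9 (284 and 200 bp).

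Icam1 (ENSMUSG00000037405.8, chromosome 9, 21015985 to 21028817, plus strand) shares its window with Icam4, Icam5 and Mrpl4, and 1 of its 5 regions was nearest to its own TSS. That region, 21015213 to 21016173, had widest peaks of 677, 208, 392, 244 and 259 bp on days 0, 1, 2, 3 and 6. There was none on day 9 or in ESCs. The peaks of this merged region were not all at 1 site. That of day 6 began at 21015915, beyond the end of the day 0 peak at 21015889. Icam1 and Pdgfrb thus had the same pattern at the 5′ end, present up to day 6, found in 119 of the other genes (0.542%). A merged region 853 bp from the Icam5 TSS had peaks in all 7 libraries. The widest measured 806 bp on day 0, between 211 and 635 bp on days 1 to 9 and 291 bp in ESCs. Its day 2 peak, 21031603 to 21031813, and its ESC peak, 21030847 to 21031137, did not overlap, so no base was covered in every library. The promoter of Mrpl4, a gene for a mitochondrial ribosomal protein, had peaks in 6 libraries, all but day 2. Another region downstream had peaks of 371, 452 and 559 bp on days 0, 1 and 3, and a peak of 200 bp close to the Icam4 TSS was found on day 3 alone.

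**Figure D3:**
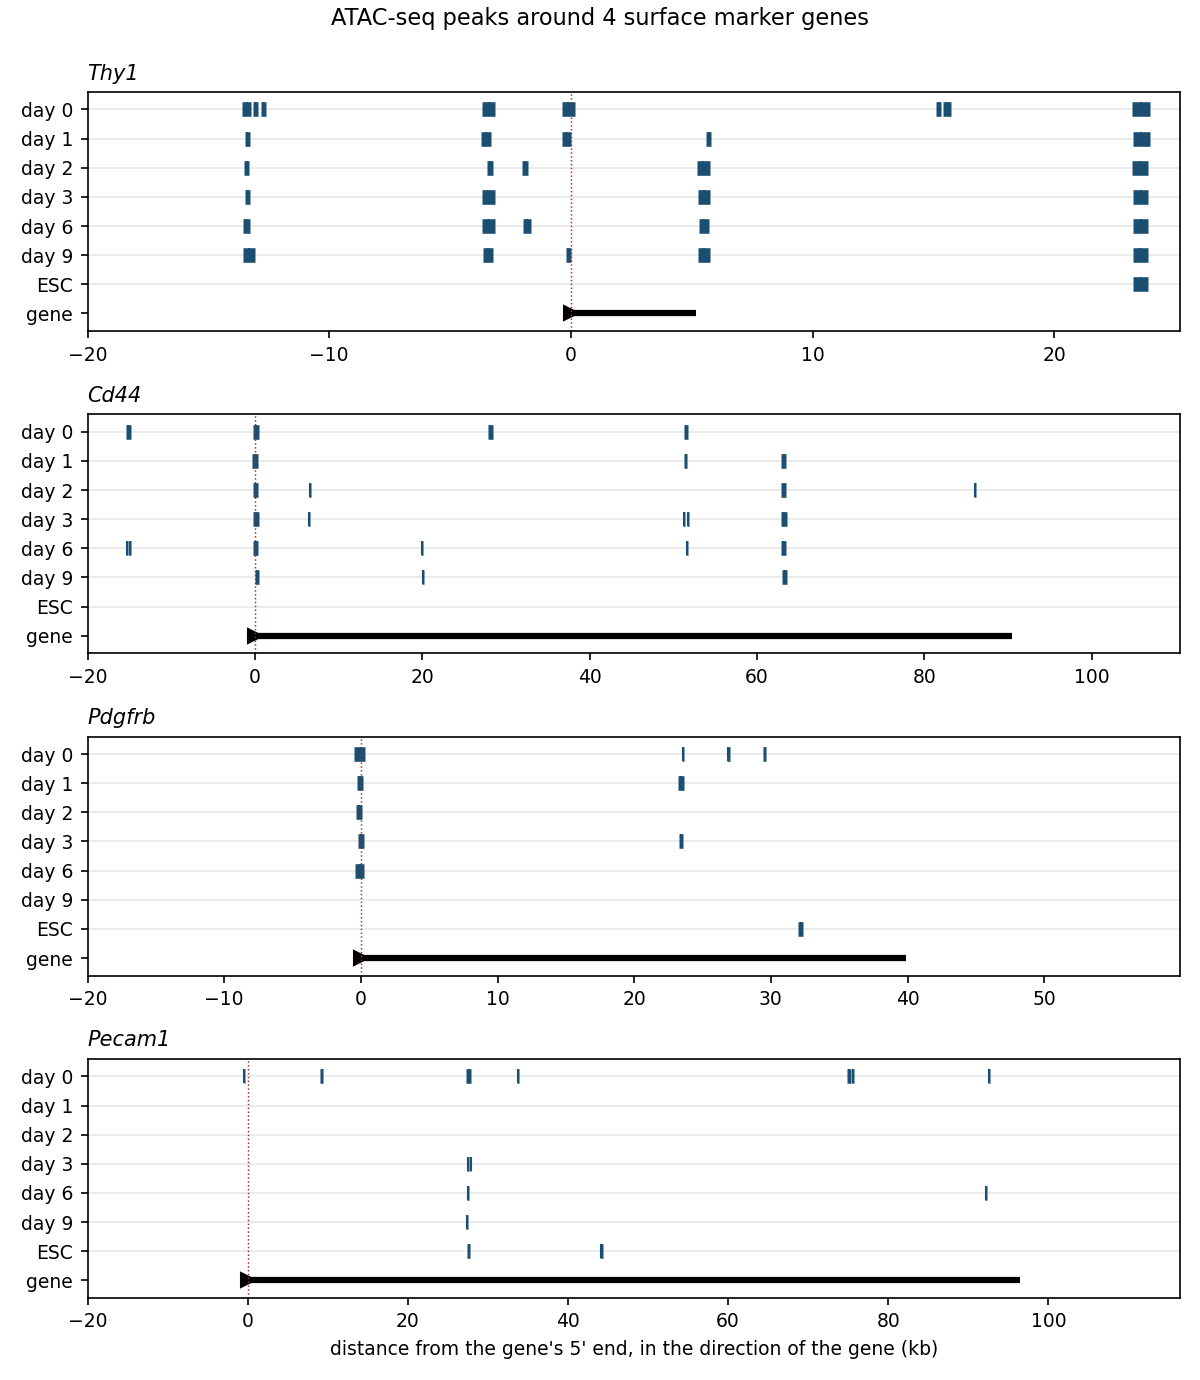
Each panel shows 1 gene with 20 kb on either side, the x axis giving the distance in kb from the 5′ end in the direction of the gene, and each line of blue bars 1 library. Bars span the peaks with a minimum drawn width, and the black bar is the gene. At Thy1 the block 5503 bp from the 5′ end and at Cd44 the block 63221 bp from it are present on days 1 to 9 and absent on day 0 and in ESCs. Pecam1 has 7 peaks on day 0 and none on days 1 and 2.

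Fut4 (ENSMUSG00000049307.6, chromosome 9, 14748320 to 14752393, minus strand) had 2 regions. Its promoter region, 14751688 to 14752633, overlaps the exon and had peaks of 532, 469, 335, 279 and 599 bp on days 0, 1, 3, 6 and 9. No peak was found there on day 2 or in ESCs. The peak was thus widest on day 9 and absent from the ESC library, whose cells are known for the epitope; 177 other genes (0.806%) had the same pattern. The other region, 21361 bp from the 5′ end and nearer to Piwil4, had peaks of 271 bp on day 0 and 200 bp on day 1. Fut9, another fucosyltransferase that makes Lewis X, had a promoter peak on day 9 and in ESCs and in no other library.

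Pecam1 (ENSMUSG00000020717.19, chromosome 11, 106654217 to 106750628, minus strand) had 9 regions and the most uneven counts of the 8 genes, with 7 peaks on day 0 and none on days 1 and 2, and with 2, 2, 1 and 2 on days 3, 6 and 9 and in ESCs. Its promoter peak, 106750917 to 106751132, was 216 bp wide and present on day 0 alone, 397 bp before the 5′ end and 201 bp from the start of the neighbour Milr1. The pattern at the 5′ end was that of 414 other genes (1.89%). A further 5 intronic regions were found on day 0 alone, with peaks of 242, 209, 452, 264 and 425 bp. The shared intron region, 106722693 to 106723341 and 27611 bp from the 5′ end, had a peak of 582 bp on day 0, none on days 1 and 2, widest peaks of 200, 261 and 217 bp on days 3, 6 and 9, and a peak of 366 bp in ESCs. The ESC intron region, 106706280 to 106706625, had a peak of 346 bp in ESCs alone. An intronic peak of 245 bp was found on day 6 alone.

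Because Pecam1 marks endothelium and Ly6a also marks blood cells, the fixed lists for those cells are given beside them. Of the endothelial genes Cdh5, Kdr, Tek, Emcn and Cldn5, 4 had a promoter peak on day 0, all but Emcn. On days 1, 2, 3, 6 and 9 there were 1, 2, 2, 3 and 3, and in ESCs 2. Of the blood genes Ptprc, Cd68, Spi1 and Csf1r, 3 had one on day 0, 2, 1, 2, 2 and 1 on the later days, and 1 in ESCs, while Ptprc, the leukocyte common antigen, had none in any library. By any TSS, day 0 thus had the highest count in both lists, as at Pecam1. The share of all protein-coding genes with a promoter peak was also highest on day 0 (59.6%). By the 5′ end alone, day 0 tied with later libraries. There were 3 endothelial genes on each of days 0, 6 and 9. For blood there was 1 gene on each of days 0, 1, 3 and 6 and in ESCs. The part of endothelial or blood cells in the day 0 peaks at Pecam1 was not tested.

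Sorted by time, 28 of the 44 regions had a peak on day 0 and none in ESCs and are called lost here. This is 63.6% (95% Clopper-Pearson interval 47.8 to 77.6%), against 44.3% of all regions. Found on day 0 and in ESCs, called shared, were 5 regions (11.4%, 3.79 to 24.6%, against 12.1%). Found only on days 1 to 9, called transient, were 8 (18.2%, 8.19 to 32.7%, against 30.7%). Found in ESCs and not on day 0, called gained, were 3 (6.82%, 1.43 to 18.7%, against 12.9%). The intervals cover counting error only, and regions of 1 gene are not replicates. With the 27074 widest peaks of each library, 8 of 27 regions near the markers were lost (29.6%) against 25.5% of all regions, and 11 were transient (40.7%) against 33.7%. The transient share was thus below that of all regions with the full lists and above it with lists of equal length. With peaks of at least 300 bp in lists of unequal length, 16 of 27 regions near the markers were lost (59.3%). The share of all regions under that filter is not given here, so this value has no background beside it.

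By gene, lost regions numbered 6 for Thy1, 4 for Cd44, 2 for Icam1, 2 for Fut4, 3 for Pdgfra, 4 for Pdgfrb, 6 for Pecam1 and 1 for Ly6a. Cd44 had 4 of the 8 transient regions and Thy1 had 2, with 1 each for Icam1 and Pecam1. The gained regions lay at Pdgfra, Pdgfrb and Pecam1, none of them at a promoter. Thy1, Cd44, Icam1 and Fut4 had no gained region.

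Among finer patterns, 15 regions were found on day 0 alone (34.1%, 20.5 to 49.9%, against 23.9% of all regions), of which Pecam1 had 6 and Thy1 3. Their peaks had a median width of 237 bp, close to the 245 bp of all such regions, while day 0 peaks found again later had medians of 534.5 and 544 bp. Regions found on day 0 and on each doxycycline day but not in ESCs were 3 (6.82% against 4.99%), namely the Cd44 promoter and the 2 Thy1 regions upstream. The 2 regions of each doxycycline day alone made up 4.55%, against 2.84%. All 7 libraries held 3 regions (6.82% against 9.75%), of which 1 was at a member's TSS, that of Pdgfra. Found in ESCs alone were 2, in introns of Pdgfrb and Pecam1 (4.55% against 9.76%). With so few regions each of these shares has a wide interval that includes the background.

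**Figure D4:**
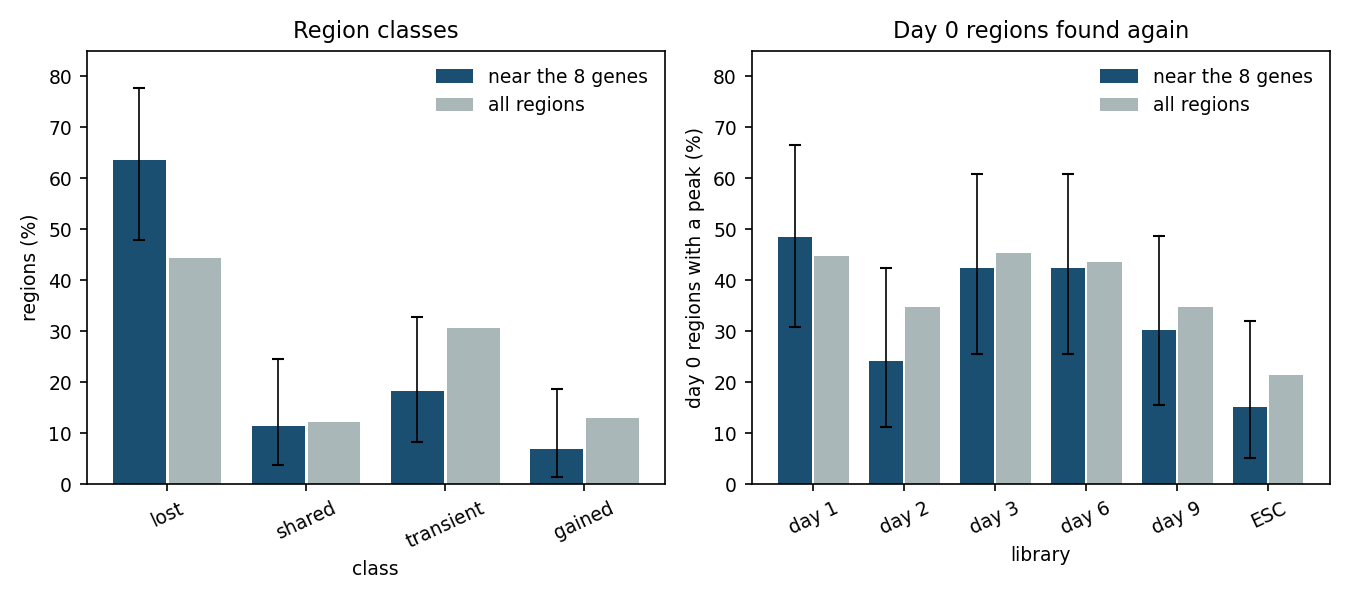
Left, share of regions in each class for the 44 regions near the 8 genes (blue, with exact 95% intervals) and for all 104346 regions (grey). Right, share of the regions with a day 0 peak that had a peak in each later library, for 33 regions near the genes and for all 58856. The lost share is 63.6% near the genes and 44.3% in all regions, and in the right panel every interval includes the grey bar.

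Of the 33 regions near the markers with a peak on day 0, 16 had one on day 1 (48.5%, 30.8 to 66.5%), against 44.7% of all 58856 day 0 regions. On day 2 there were 8 (24.2%, 11.1 to 42.3%, against 34.8%), on day 3 there were 14 (42.4%, 25.5 to 60.8%, against 45.3%) and on day 6 again 14 (42.4%, against 43.6%). On day 9 there were 10 (30.3%, 15.6 to 48.7%, against 34.7%) and in ESCs 5 (15.2%, 5.11 to 31.9%, against 21.4%). In both sets the ESC library had the lowest share and days 2 and 9 the next lowest, the libraries with the shortest lists. No share near the markers lay apart from its background beyond its interval.

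The 44 regions lay mostly away from the promoters. Within 1000 bp of a TSS of the member there were 8, and 36 lay farther off. By annotation 17 were intronic, 8 overlapped an exon, 8 lay upstream and 11 downstream of the gene. For 31 the nearest protein-coding TSS was the member's own, while for 13 it was that of a neighbour, so that position alone does not assign these to the marker.

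Across genes, the length under peaks in the window was compared over the 7 libraries among the 18926 protein-coding genes whose length was not the same in every library, as a description. For Thy1 (3169, 1937, 1900, 1841, 2237, 2260 and 615 bp from day 0 to ESCs) the closest genes were Slc4a9 and Pdia4, each with Pearson's r of 0.9971. For Cd44 (2361, 1626, 1654, 2151, 2299, 1359 and 0 bp) they were Mical2 (0.9929) and Fam53c (0.9928). For Icam1 (2866, 1994, 603, 2118, 1533, 970 and 603 bp) they were Me1 (0.9957) and Clic4 (0.9930), and for Fut4 (803, 669, 0, 335, 279, 599 and 0 bp) Tlr3 (0.9892) and Slc22a5 (0.9846).

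The lengths at Pdgfra (1300, 816, 790, 845, 1428, 501 and 1161 bp) were most like those at Gm4450 (0.9653) and Anapc10 (0.9637). Those at Pdgfrb (1498, 895, 456, 669, 630, 0 and 353 bp) were most like Cdc37 (0.9933) and Ipo7 (0.9924), and those at Pecam1 (2390, 0, 0, 400, 506, 217 and 712 bp) most like Bco1 (0.9939) and Zzef1 (0.9932). Ly6a, with 237 bp on day 0 and 0 elsewhere, tied with 337 genes. All points share the libraries and their list sizes, and the best of many genes over 7 points will always be high.

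A list of 17 other genes, encoding surface markers of reprogramming or stromal cells or, as Fut9, an epitope-making enzyme, showed a mixed picture. A promoter peak was present for 12 of them on day 0, against 59.6% of all protein-coding genes. On days 1, 2, 3, 6 and 9 it was present for 10, 10, 11, 13 and 10, against 51.6 to 57.3%. In ESCs it was present for 10, against 50.3%. By the 5′ end alone the counts were 10 on day 0, 9, 8, 10, 12 and 9 on the later days and 9 in ESCs. A peak on day 0 and none in ESCs was found for 4: Cd9, a tetraspanin, Eng, the co-receptor endoglin, Pdpn, which encodes podoplanin, and Itga4, an integrin subunit. The reverse was found for 2, Fut9 and Kit, the receptor of stem cell factor. Of all protein-coding genes, 12.1% had the first pattern and 2.72% the reverse. The distance of the 17 genes from these shares was not tested. Kit had a promoter peak on days 2 and 6 and in ESCs, and its window held 6 peaks in ESCs and 0 on day 0. Epcam and Vcam1 had no promoter peak in any library.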

How the data were processed

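ATAC-seq was performed by the authors in 7 libraries, 6 from OKSM MEFs (days 0, 1, 2, 3, 6 and 9) and 1 from ESCs, grouped by the time-point in the labels. Per the labels and methods, the authors used Trimmomatic for trimming, Bowtie2 for alignment to mm10 and Picard against duplicates, downsampled all samples to an equal depth and called peaks per library with MACS2. The deposited files give each peak as a chromosome with a start and an end and hold no signal, score or q-value. Peaks were at least 200 bp wide, and no peaks of 1 library overlapped.

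Peaks were assigned to genes of GENCODE M21 with Python 3.11.15, by an overlap of 1 bp or more with the gene and 20000 bp on each side. Regions are merged peaks of all libraries. The code for overlaps was tested on simulated data and compared with bedtools 2.31.1. Promoter peaks lie within 1000 bp of a TSS. Shares carry exact 95% Clopper-Pearson intervals, and no p-value was computed, since each time-point has 1 library. The 8 genes, the marker lists, the motifs and the alternatives were chosen with earlier results of these data known. All 8 genes are named, with every region at a promoter and up to 3 of the widest others in each class, and the remaining regions by their values. Of the other markers, those with a promoter peak at only 1 of day 0 and ESCs were named, together with Epcam and Vcam1, chosen after their values were seen. The closest genes are those with the highest r over 1 Mb away. Alternatives were wider peaks (at least 300 bp), equal numbers of the widest peaks, merging within 300 bp, other windows and promoter distances, the 5′ end alone, regions nearest to the member's own TSS and, added after the data were seen, the libraries without days 2 and 9.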

Additional observations from a re-analysis of the deposited data

How the results depend on the processing

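Of 104 values recomputed under the alternatives, 97 were classed as staying within the counting interval of a share or within 1.5 times a count, and 7 moved. All are counts or percentages, so none could change sign. The ESC peaks as a percentage of day 0 peaks are a ratio of counts from different libraries. With peaks of at least 300 bp this ratio was 35% in place of 22.9%, a change classed among the 97. When each list was limited to 27074 peaks by width, the ESC peaks near the markers came to 66.7% of those on day 0 in place of 22.9%. In the same setting the lost share was 29.6% in place of 63.6%, the transient share 40.7% in place of 18.2% (above the 33.7% of all regions, where it had been below their 30.7%), and the day 0 regions with a later peak 58.3% for day 9 in place of 30.3% and 33.3% for ESCs in place of 15.2%. With the 5′ end alone, members with a promoter peak numbered 3 in place of 5 on day 2 and 0 in place of 1 in ESCs. Without the libraries of days 2 and 9, chosen after seeing the data, the lost share was 64.4%, with no share of all regions beside it. No paired analysis was possible because there was 1 library at every time-point, and leaving out a replicate was not possible either. Peak calls at an unknown depth limit every absence given here.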

Other observations

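Outside the surface markers, 7 of 8 fibroblast genes had fewer peaks in their windows in ESCs than on day 0, and 1, Twist1, had 2 in both. Fbn1, which encodes the matrix protein fibrillin, had 22 peaks on day 0, 10 to 15 on days 1 to 9 and 2 in ESCs. Col1a2, a collagen gene, had 7 on day 0 and 0 in ESCs, S100a4 had 8 and 2, Twist2 had 6 and 2, Vim had 4 and 2, Prrx1 had 3 and 0, and Postn had 2 and 0. Of 7 ESC genes, 4 had more peaks in ESCs than on day 0, 2 had fewer and 1 had the same number. Pou5f1 had 2 peaks on day 0 and 4 in ESCs, Esrrb had 4 and 5, Dppa5a had 1 and 2, and Zfp42 had 0 and 1. Tdgf1 had 5 on day 0 and 1 in ESCs, Nanog had 3 and 1, and Sall4 had 1 in both. The day 0 list is the longest and the ESC list the shortest, and without replicates these counts were not tested. The shares of all genes with fewer or more window peaks in ESCs than on day 0 are not given here. These counts therefore cannot be read as particular to either list.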
